A study of Drosophila melanogaster with 2 samples.

Results

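Divergent promoters are stretches of DNA from which 2 genes are transcribed in opposite directions. The sites described here are peaks of GFP-tagged CG15696, a homeodomain protein of Drosophila melanogaster, at such promoters. They were chosen by annotation: the summit of a site in the reproducible list had to lie within 500 bp of transcription start sites (TSSs) of at least 2 protein-coding genes on opposite strands. Of 5354 sites, 897 met this rule (16.8%, 95% Wilson interval 15.8 to 17.8%), and they made up 40.0% of the 2245 sites within 500 bp of any protein-coding TSS. The other 1348 of those sites are called other promoter sites below.

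The chromatin came from whole embryos aged 2 to 8 h, males and females pooled, of 1 transgenic line that stably expresses CG15696 with GFP fused to its C-terminus, and it was precipitated with an antibody against GFP. There was 1 group, with the libraries labelled biological replicates 3 and 1, and hence no comparison between conditions and no test across samples. Whole embryos mix all cell types, so the cells in which a site is bound cannot be told apart. The scale of the deposited signal and the read depth behind it are unknown. Signal was compared only within a list, or as the ratio of replicate 3 to replicate 1 at the same site.

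In the compact fly genome many neighbouring genes start close together and point away from each other. Such head-to-head pairs share the DNA between their TSSs, where nucleosomes are often depleted and where factors such as DREF, which activates genes of growth and replication, can act on both genes. Homeodomain proteins bind short AT-rich sequences, of which TAATTA is the best known.

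Nearly all of these sites lay at head-to-head pairs, and the summit was usually between the 2 TSSs. The rule already asks for TSSs on opposite strands. How many annotated TSS pairs this close are head-to-head without regard to sites was not counted. Taking the nearest TSS on each strand, 886 of the 897 sites (98.8%, 95% interval 97.8 to 99.3%) had the minus-strand TSS on the left and the plus-strand TSS on the right. In the remaining 11 the transcripts overlapped at their starts, by 11 to 632 bp. The sites fell on 857 gene pairs and 1713 genes, and 43 sites had TSSs of 3 or more genes in reach. Site width had a median of 404 bp, the same as at other promoter sites.

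To show what lies between the TSSs, the whole stretch between them is given for the 6 strongest head-to-head sites whose summit lies there, whose TSSs are 60 to 300 bp apart and whose stretch holds no annotated transcript (arms 2L, 3L and 3R). Sequences were read from RefSeq's dm6 (Release 6) assembly, plus strand, 5′ to 3′, so each runs from the start of the first-named gene to that of the second. Capitals mark TATCGATA (the DREF motif), its core CGATA, the homeodomain motif TAATTA, the TATA box letters TATAAA and the A/T hexamer TTAAAA on either strand, where runs may join overlapping motifs. The positions in dm6 are chr3R:15229409-15229664 for Art3/mRpS10, chr3L:5139396-5139618 for Tcs5/CHMP2B, chr3L:19612200-19612454 for Lon/PIG-F, chr3L:9426759-9427009 for Atat/Shc, chr3L:15982870-15983134 for brm/Arl1, chr2L:8376798-8377034 for CG13390/CG17294.
Art3/mRpS10: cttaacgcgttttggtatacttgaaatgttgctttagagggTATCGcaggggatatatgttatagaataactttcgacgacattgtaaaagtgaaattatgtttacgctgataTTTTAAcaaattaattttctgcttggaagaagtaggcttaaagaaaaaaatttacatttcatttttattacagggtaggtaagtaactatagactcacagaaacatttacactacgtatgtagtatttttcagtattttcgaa
Tcs5/CHMP2B: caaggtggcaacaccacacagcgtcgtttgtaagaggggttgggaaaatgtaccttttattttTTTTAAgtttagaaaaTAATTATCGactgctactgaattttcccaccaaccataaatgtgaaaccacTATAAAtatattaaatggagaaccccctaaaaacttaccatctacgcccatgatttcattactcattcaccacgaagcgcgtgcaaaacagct
Lon/PIG-F: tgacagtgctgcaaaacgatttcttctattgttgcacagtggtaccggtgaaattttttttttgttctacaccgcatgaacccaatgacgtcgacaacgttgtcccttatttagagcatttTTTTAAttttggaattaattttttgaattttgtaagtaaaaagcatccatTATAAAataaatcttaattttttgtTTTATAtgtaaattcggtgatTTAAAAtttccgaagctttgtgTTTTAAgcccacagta
Atat/Shc: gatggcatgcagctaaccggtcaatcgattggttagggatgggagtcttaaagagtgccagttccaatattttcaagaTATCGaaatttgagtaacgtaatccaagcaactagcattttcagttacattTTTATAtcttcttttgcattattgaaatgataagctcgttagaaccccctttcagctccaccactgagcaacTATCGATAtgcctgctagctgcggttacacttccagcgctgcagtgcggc
brm/Arl1: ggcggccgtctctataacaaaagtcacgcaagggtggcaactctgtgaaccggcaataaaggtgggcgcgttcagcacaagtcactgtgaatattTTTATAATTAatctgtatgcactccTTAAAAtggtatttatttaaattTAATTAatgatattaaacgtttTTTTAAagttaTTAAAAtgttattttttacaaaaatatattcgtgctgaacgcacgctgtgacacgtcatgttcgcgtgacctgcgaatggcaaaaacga
CG13390/CG17294: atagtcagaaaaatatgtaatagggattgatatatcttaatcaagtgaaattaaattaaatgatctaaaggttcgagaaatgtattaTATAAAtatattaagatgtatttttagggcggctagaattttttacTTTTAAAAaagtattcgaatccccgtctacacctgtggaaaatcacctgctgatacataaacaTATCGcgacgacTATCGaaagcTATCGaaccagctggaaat

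The summit fell on base 128 of 256 for Art3/mRpS10, base 106 of 223 for Tcs5/CHMP2B, base 134 of 255 for Lon/PIG-F and base 127 of 251 for Atat/Shc. It fell on base 140 of 265 for brm/Arl1 and base 88 of 237 for CG13390/CG17294. The first 5 of these summits are thus within 7 bp of the middle of their stretch, and the last is off centre. GC content over the whole stretch ran from 30.1% (Art3/mRpS10) to 43.0% (Atat/Shc). TAATTA occurred once in the Tcs5/CHMP2B stretch and 2 times in the brm/Arl1 stretch, and not in the other 4. The full DREF motif occurred only in the Atat/Shc stretch among these 6, near the Shc start. CGATA stood 3 times in the CG13390/CG17294 stretch, near the CG17294 start.

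The strongest of these sites are given by name. The strongest of all, of rank 4 in the reproducible list, was between Art3, which encodes an arginine methyltransferase, and mRpS10, for a protein of the mitochondrial ribosome, on 3R from 15229305 to 15229775. Its signal was 4980 in replicate 3, 1886 in replicate 1 and 6861 in the combined list. The site between Tcs5, for a kinase of the tRNA-modifying KEOPS complex, and CHMP2B, for an ESCRT membrane remodelling subunit, had 2836 in replicate 3, 1052 in replicate 1 and 3874 combined. That between Pdrg1 and Pal1, an enzyme that processes amidated peptides, had 2803 in replicate 3, 1086 in replicate 1 and 3885 combined. All of these ranked among the 12 strongest peaks of replicate 3 and the 31 strongest of replicate 1.

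The eIF4EHP/CG18428 site, at the gene of a cap-binding translational repressor, had a signal of 2373 in replicate 3 and 1126 in replicate 1. The Lon/PIG-F site, between a mitochondrial protease gene and a gene of GPI anchor synthesis, had 2473 in replicate 3 and 919.6 in replicate 1. The order of these 2 sites differed between the libraries. The Atat/Shc site, between a tubulin acetyltransferase gene and one for an adaptor of receptor tyrosine kinases, had 2317 in replicate 3 but 581 in replicate 1, where its rank was 143 against 21 in replicate 3.

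Some of the 15 strongest sites lay at genes of chromatin factors, a class that was not counted over all sites or all genes. The Chro/Ssl1 site, at the genes of the chromodomain protein Chromator and of a TFIIH subunit, had a signal of 2054 in replicate 3 and 1087 in replicate 1. The brm/Arl1 site, at the gene of the SWI/SNF ATPase Brahma and that of a Golgi GTPase, had 2062 in replicate 3 and 658 in replicate 1. The Cp190/CG4338 site, at the gene of an insulator protein, had 1718 in replicate 3 and 747 in replicate 1. Others among the 15 were CG11309/CG7632, mRpS23/CenG1A, DUBAI/Tmem18, CG13390/CG17294 and Reps/l(2)gd1, with 1670 to 2092 in replicate 3 and 466 to 1225 in replicate 1. Of the 15, 13 had the summit between the TSSs. Their spacing ran from 39 to 492 bp with a median of 266 bp, and their summits lay 83 to 158 bp from the nearer TSS.

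TSS spacing at these sites was concentrated around 300 bp. Over the 886 head-to-head sites the smallest spacing was 6 bp and the largest 864 bp, with a median of 298 bp and quartiles at 226 and 393 bp. Spacings of 200 to 400 bp made up 57.8% of them (95% interval 54.5 to 61.0%). Among the smallest spacings were CG3032/CG4593 (6 bp, signal 102 in replicate 3 and 97.4 in replicate 1) and SerRS/CG17260 (8 bp, 425 in replicate 3 and 247 in replicate 1). The largest spacings were at mRNA-cap/CG32599 (864 bp, 135 in replicate 3 and 33.0 in replicate 1), Mondo/crc (816 bp, 111 in replicate 3 and 42.6 in replicate 1) and chic/eIF4A (746 bp, 79.7 in replicate 3 and 69.1 in replicate 1). SerRS encodes seryl-tRNA synthetase, mRNA-cap the mRNA capping enzyme and chic profilin. The rule itself allows no spacing over 1000 bp.

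The summit lay close to the midpoint between the TSSs and was not shifted to 1 strand. It was between the TSSs in 766 of the 886 sites (86.5%, 95% interval 84.0 to 88.6%). Its distance from the midpoint had a median of 48 bp and quartiles at 20 and 94.5 bp, and 51.4% of summits were within 50 bp of it. The minus-strand TSS was nearer in 435 sites, the plus-strand TSS in 448, and 3 were at equal distance. At spacings up to 500 bp the rule allows every position between the TSSs, and even placement would put 50% of the summits that lie between them in the central 50% of the interval. The share found there was 61.9% of 63 at 100 to 200 bp, 88.5% of 269 at 200 to 300 bp, 79.3% of 217 at 300 to 400 bp and 73.6% of 106 at 400 to 500 bp.

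**Figure D1:**
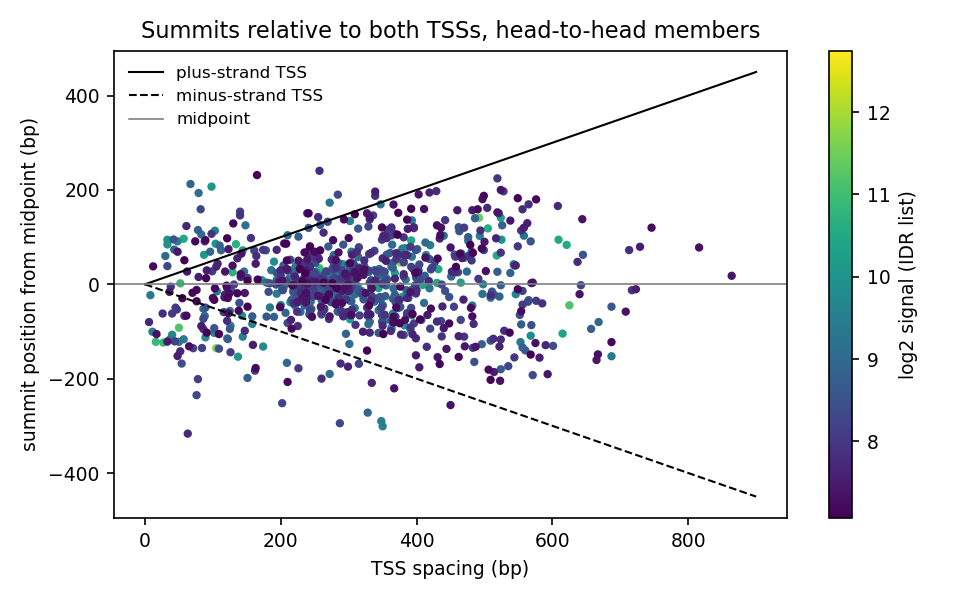
Position of each summit relative to the midpoint between the 2 TSSs (vertical, bp, positive towards the plus-strand TSS) against TSS spacing (horizontal, bp) for the 886 head-to-head sites, coloured by log2 signal in the combined list. The lines mark the TSSs and the midpoint. Summits at spacings of 200 to 400 bp cluster on the midpoint, while at spacings under 100 bp most lie outside the TSSs.

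With wider spacing the summit moved away from both TSSs. The median distance to the nearer TSS was 102 bp at spacings of 200 to 300 bp, 125 bp at 300 to 400 bp and 156 bp at 400 to 500 bp. The median distance from the midpoint rose over the same bins, at 25.8, 50 and 74.5 bp. At other promoter sites 84.3% of summits were upstream of the nearest TSS, at a median of 176 bp. At the divergent sites the median distance was 107 bp to the nearer TSS and 193 bp to the farther one.

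At very close pairs the summit lay outside, over 1 of the genes. At spacings up to 50 bp only 2 of 29 sites had it between the TSSs, and at 50 to 100 bp 10 of 45. Intervals this short hold few of the positions that the rule allows, and the share under even placement was not computed for them. Of the 120 outside summits, 75 were on the side of the minus-strand gene and 45 on that of the plus-strand gene, at a median of 54.5 bp from the nearer TSS. Chro/Ssl1 (spacing 105 bp) and CG11309/CG7632 (39 bp) are strong examples, with the summit 83 and 92 bp from the nearer TSS. In both the summit was on the side of the minus-strand gene. Among the 11 overlapping pairs the strongest was CG4741/Adck1, with signal 589 in replicate 3 and 309 in replicate 1. The weakest was Dhod/Sys1, with 106 in replicate 3 and 37.2 in replicate 1.

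A small number of pairs held 2 sites. There were 40, with a median TSS spacing of 363 bp, and in 29 both summits were between the TSSs. The 2 summits were a median of 202.5 bp apart, with quartiles at 200 and 206.25 bp. The distance was thus nearly constant, at 199 to 228 bp in all but endos/CG6650 (677 bp). Site width had both its median and its upper quartile at 404 bp. Whether peak width sets the distance, and whether the 2 sites of a pair are bound separately, was not tested. The stronger site had 1.18 to 8.00 times the signal of the weaker. The strongest such pair was Brf/sds22, where Brf encodes a subunit of the RNA polymerase III factor TFIIIB (combined signals 1764 and 221, the weaker outside the TSSs). Both summits of M1BP/CG8202, at the gene of motif 1 binding protein, had high signal (916 and 687).

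How often close pairs hold a site was counted over the annotation. There were 2412 head-to-head pairs of mutually nearest protein-coding genes with TSSs at most 1000 bp apart. A summit lay between the TSSs or within 100 bp outside them in 871 of these, or 36.1% (95% interval 34.2 to 38.0%). With the equally long lists of strongest peaks, the share was 36.8% in replicate 3 and 33.8% in replicate 1. The full combined list of 30000 peaks, which includes weakly supported ones, had a peak at 67.5%. A summit lay in the 300 bp upstream of a TSS for 34.5% of the 4824 genes of these pairs and for 8.89% (95% interval 8.33 to 9.49%) of the other 9121 genes. A shared site counts for both genes of a pair, so this difference is a description without a test.

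The share with a site was highest at spacings of 200 to 400 bp. It was 16.2% of 173 pairs at up to 50 bp, 16.3% of 233 at up to 100 bp and 26.97% of 330 at up to 200 bp. It was 53.3% of 503 pairs at up to 300 bp (95% interval 48.9 to 57.6%) and 52.1% of 365 at up to 400 bp. Beyond that it was 39.7% of 239 pairs at up to 500 bp, 30.7% of 375 at up to 750 bp and 24.7% of 194 at up to 1000 bp. Wider pairs offer more positions for a summit, yet their share was lower. Each library gave its highest share in the 200 to 300 bp bin, at 53.7% in replicate 3 and 51.9% in replicate 1.

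**Figure D2:**
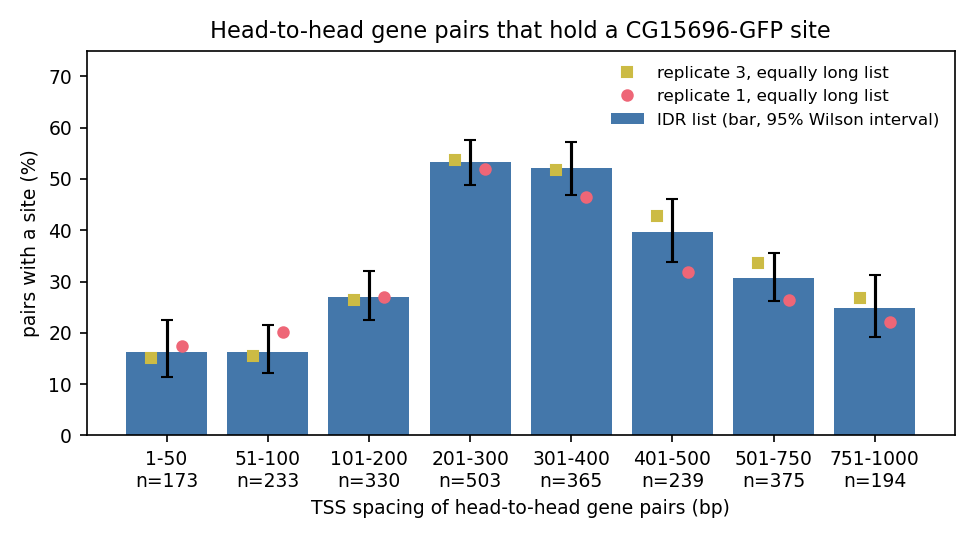
Share of annotated head-to-head pairs with a summit between the TSSs or within 100 bp outside (vertical, percent) by TSS spacing (horizontal, bp, with the number of pairs). Bars are the reproducible list with 95% Wilson intervals, squares replicate 3 and circles replicate 1 with equally long lists. All 3 lists peak at spacings over 200 and up to 300 bp, at 51.9 to 53.7%.

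Signal followed spacing only weakly. The median combined signal was 386 over the 29 sites at up to 50 bp, 264 over the 45 at 50 to 100 bp, 296 over the 97 at 100 to 200 bp, 355 over the 284 at 200 to 300 bp, 308 over the 225 at 300 to 400 bp, 255 over the 107 at 400 to 500 bp and 244 over the 97 at 500 to 750 bp. Across the 886 sites, Spearman's rank correlation of spacing and signal was -0.09. Sites share libraries and base composition, so these values carry no p.

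The share of pairs with a site varied between arms. Of the members, 265 were on 3R, 192 on 3L, 172 on 2L, 161 on 2R, 105 on X and 2 on chromosome 4. A site was held by 42.7% of the 595 close pairs on 3R (95% interval 38.8 to 46.7%), 40.9% of 469 on 3L, 33.6% of 473 on 2L and 33.1% of 483 on 2R. On X it was 27.6% of 381 pairs (95% interval 23.3 to 32.3%). X was also below the major autosomal arms in each library, with 29.4% in replicate 3 and 23.1% in replicate 1. On chromosome 4 it was 1 of 11 pairs (9.09%, 95% interval 1.62 to 37.7%), and none with the replicate 1 list.

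The DNA under these summits was AT-rich. Within 50 bp of the summit the mean GC content was 29.0% ± 8.44 (SD over 897 sites) at divergent promoter sites and 33.4% ± 9.72 (SD over 1348 sites) at other promoter sites. The divergent sites spanned 9.90% to 59.4%, with a median of 27.7%. The lowest value was at mRNA-cap/CG32599. At 350 bp from the summit the mean was 47.5% at divergent and 42.8% at other promoter sites, so the divergent sites had the deeper drop. Across members, Spearman's rank correlation of GC content and combined signal was -0.31 (n = 897).

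Pairs with a site were more AT-rich at their midpoint than pairs of like spacing without one. At spacings of 200 to 300 bp, GC within 50 bp of the midpoint averaged 25.1% ± 6.15 in 268 pairs with a site and 31.0% ± 9.82 in 235 pairs without (SD over pairs). At 300 to 400 bp it averaged 25.7% ± 6.42 with a site and 30.3% ± 8.37 without. The gap was smaller at 400 to 500 bp (27.05% with and 29.3% without) and at 50 to 100 bp (42.3% with and 44.0% without). All 8 bins had the lower mean in pairs with a site, and in every bin the means lay within 1 SD of each other. Along pairs spaced 200 to 300 bp, the profile of pairs with a site was lowest at the midpoint (24.1%) and reached 44.4% at 120 bp to either side, near the TSSs. It was lower again at 200 bp (36.3 and 36.8% on the 2 sides) and reached 50.8 and 50.6% at 300 bp.

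**Figure D3:**
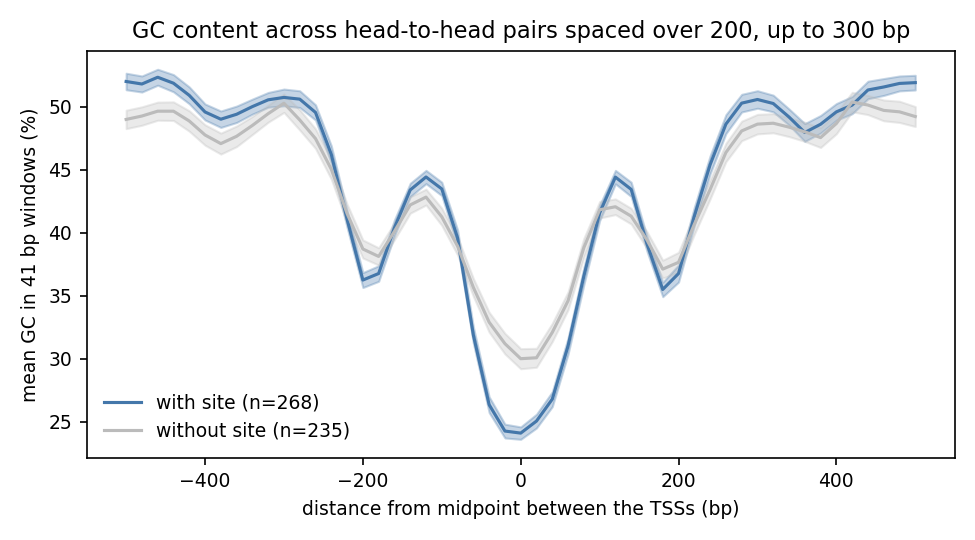
Mean GC content in 41 bp windows (vertical, percent) by distance from the midpoint (horizontal, bp) in head-to-head pairs spaced over 200 and up to 300 bp, for 268 pairs with a site (blue) and 235 without (grey). Shading is the standard error over pairs. At the midpoint the mean is 24.1% with a site and 30.0% without, and the 2 curves are closer together near the TSSs.

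Matches to short motifs differed between divergent and other promoter sites. Windows of 100 bp to either side of the summit were searched on both strands. TATCGATA, the motif of DREF, was in 10.1% of divergent sites (95% interval 8.34 to 12.3%), 4.53% of other promoter sites and 7.82% of windows of the same length centred on 1 TSS of every protein-coding gene. Its core CGATA, which lies inside it, was in 44.4% of divergent sites, 32.5% of other promoter sites and 39.3% of TSS windows. TAATTA was in 25.4% of divergent sites (95% interval 22.7 to 28.4%), 16.5% of other promoter sites and 9.95% of TSS windows. TATAAA was in 49.8% of divergent sites, 38.2% of other promoter sites and 29.0% of TSS windows. TTAAAA was in 63.2% of divergent sites, 52.4% of other promoter sites and 32.7% of TSS windows. The mean GC content of these windows was 31.7% at divergent sites, 34.96% at other promoter sites and 41.6% at TSSs, which moves with the AT-rich motifs, and its part in these shares was not tested. The median distance from summit to nearest TSS also differed, at 107 bp for head-to-head divergent sites and 174 bp for other promoter sites. Its part was not tested either.

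Other motifs were less frequent at divergent than at other promoter sites, or close to them. GAGAG, the GAGA factor motif, was in 10.8% of divergent and 20.6% of other promoter sites, CATATG in 5.69% of divergent and 8.09% of other promoter sites and CAAACA in 17.7% of divergent and 21.4% of other promoter sites. CAGGTA, the core of the Zelda motif, was in 3.34% of divergent and 4.30% of other promoter sites, GGTCACAC, the core of motif 1, in 4.46% of divergent and 3.26% of other promoter sites, and CAGCTG in 9.36% of divergent and 7.72% of other promoter sites. Of these 6 motifs, only GAGAG had 95% intervals that do not overlap between the 2 groups.

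Within pairs spaced 200 to 500 bp, midpoints of the 553 pairs with a site and of the 554 without could be compared over windows of the same length. TAATTA was in 32.7% of those with a site and 22.9% of those without, TATAAA in 56.4% with a site and 41.7% without, and TATCGATA in 7.96% with a site and 3.79% without. TTAAAA (67.6% with a site and 62.8% without), CGATA (38.3% with a site and 35.7% without) and GGTCACAC (2.71% with a site and 2.17% without) had overlapping 95% intervals. The midpoint windows had a mean GC content of 28.7% with a site and 32.2% without.

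**Figure D4:**
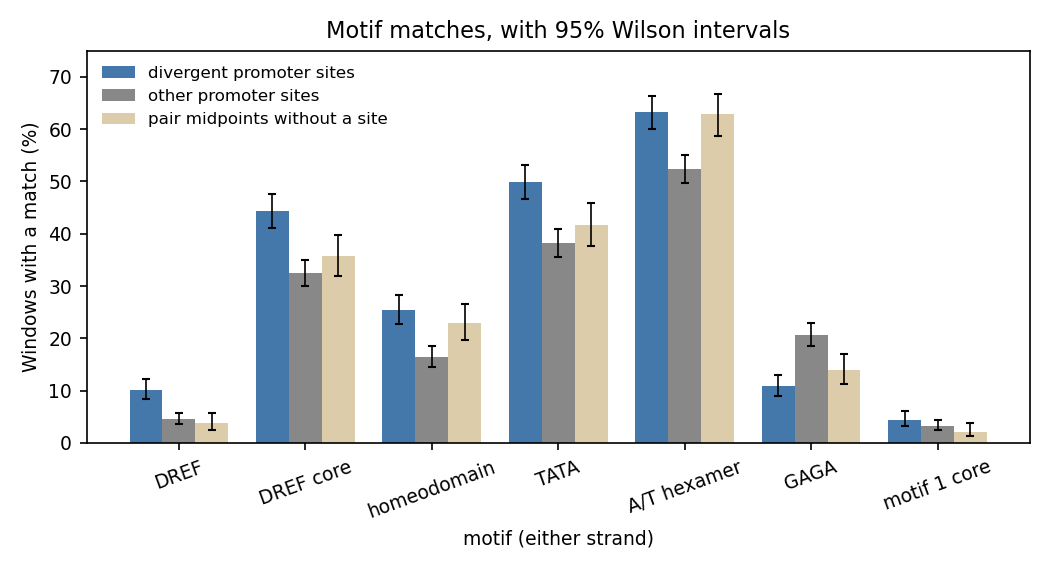
Share of windows of 100 bp to either side of a centre with a motif match on either strand (vertical, percent) for 7 of the 11 motifs searched (horizontal), with 95% Wilson intervals. Windows are centred on the 897 divergent promoter summits (blue), the 1348 other promoter summits (grey) and the midpoints of 554 pairs spaced 200 to 500 bp without a site (tan). The DREF share is 10.1% in the first and at most 4.53% in the others. Not drawn are windows centred on 1 TSS of every gene (7.82%) and midpoints of 553 like pairs with a site (7.96%). The sets lie at unlike distances from TSSs, and the part of this in the shares was not tested. The A/T hexamer is TTAAAA.

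By median distance, the DREF motif stood closer to the TSSs than to the summit. Among head-to-head sites, 260 matches lay within 300 bp of a summit, at a median of 30.5 bp from the nearer TSS, and 79.6% of them were between the TSSs. Over the 225 members with such a match, the nearest one was a median of 112.5 bp from the summit. For TTAAAA it was 43.5 bp over 769 members, and for TAATTA 74 bp over 388. A motif with more matches has a nearer one by number alone, and the distances under even placement were not computed, so the motifs cannot be ranked by these medians. The 91 members with the motif within 100 bp had a median combined signal of 225, against 316 for the 806 without. Members with GGTCACAC, the core of motif 1, were also lower (210 over 40, against 313 over the 857 without). Mean GC content was higher with either motif, at 32.9% with TATCGATA and 28.6% without, and 35.0% with GGTCACAC and 28.8% without. Its part in these median signals was not tested. The 228 members with TAATTA had a median of 327 and the 669 without it 298, a difference that is small beside the spread over sites, whose quartiles were 197 and 537.

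The share of genes at these sites was read for each list against that of all genes. Of all 13945 protein-coding genes, 12.3% were at one of the sites, meaning that they had the nearest TSS on their strand. In 7 lists the share lay above it with an interval that excluded it. Of 73 mitochondrial ribosomal protein genes 27 were at one (37.0%, 95% interval 26.8 to 48.5%), of 85 cytoplasmic ribosomal protein genes 27 (31.8%, 22.8 to 42.3%), and of 33 aminoacyl-tRNA synthetase genes 12 (36.4%, 22.2 to 53.4%). Of 56 genes of RNA polymerase and Mediator subunits 20 were (35.7%, 24.5 to 48.8%), of 30 splicing genes 9 (30.0%, 16.7 to 47.9%), of 25 TFIID and general factor genes 7 (28.0%, 14.3 to 47.6%) and of 80 respiratory chain and ATP synthase genes 17 (21.2%, 13.7 to 31.4%). The intervals of the other lists of cell machinery included the share of all genes. These were 48 proteasome genes with 9 (18.8%, 10.2 to 31.9%), 44 translation initiation factors with 7 (15.9%, 7.93 to 29.4%), 25 replication genes with 3 (12.0%, 4.17 to 29.96%) and 8 anaphase promoting complex genes with 1 (12.5%, 2.24 to 47.1%). On the developmental lists ro was the 1 gene of 37 homeobox regulators (2.70%, 0.479 to 13.8%) and E(spl)mdelta-HLH the 1 of 11 E(spl) complex genes (9.09%, 1.62 to 37.7%), and both intervals included the share of all genes. None of 179 chemoreceptor and 70 cuticle protein genes was at one (upper 95% limits 2.10% and 5.20%).

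The lists also differed in how often their genes stand in close pairs. Of all genes 34.6% were in a close head-to-head pair, of mitochondrial ribosomal protein genes 79.5%, of splicing genes 86.7%, of chemoreceptor genes 14.5%, and of homeobox regulators 1 gene of 37. Among genes in close pairs, 36.1% of all genes were in a pair with a site. This share was 58.3% of 36 for RNA polymerase and Mediator genes, 56.9% of 51 for cytoplasmic and 51.7% of 58 for mitochondrial ribosomal protein genes, 47.8% of 23 for synthetases and 34.6% for both the 26 splicing and the 26 proteasome genes. It was 31.0% of 42 for respiratory chain genes and 0 of 26 for chemoreceptor genes. Histone genes were the reverse case, with 75.7% of 115 in close pairs and 2 of 87 of these in a pair with a site. Most annotated histone genes are near-identical copies in a repeated cluster, and how reads of repeats were placed is not stated; its part in this count was not tested.

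Among ribosomal genes the strongest sites were Art3/mRpS10, mRpS23/CenG1A (signal 1878 in replicate 3 and 909 in replicate 1) and mRpL23/CG9004 (1672 in replicate 3 and 666 in replicate 1). These were all mitochondrial, but the typical site was not stronger there. The median combined signal was 268 over 29 sites at mitochondrial and 286 over 31 at cytoplasmic ribosomal protein genes. Over all 897 sites it was 308. The strongest at a cytoplasmic ribosomal protein gene were RpL34b/CG8132 (794 in replicate 3 and 309 in replicate 1) and CG17271/RpS20 (461 in replicate 3 and 193 in replicate 1). The stronger of the sites at RpS27/Nup37 had 368 in replicate 1 and no replicate 3 summit within 100 bp.

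For transcription and RNA genes, elm/MED27, at a Mediator subunit gene, had 1272 in replicate 3 and 298 in replicate 1. CG10584/Polr3E, at an RNA polymerase III subunit gene, had 860 in replicate 3 and 343 in replicate 1, and Taf5/Pex6, at a TFIID subunit gene, 882 in replicate 3 and 342 in replicate 1. U2af50/PIG-Q, at the gene of a splice site recognition factor, had 630 in replicate 3 and 337 in replicate 1. All of these were higher in replicate 3, as were most sites.

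In the remaining lists, TppII/ND-MWFE, at a gene of respiratory complex I, had 726 in replicate 3 and 232 in replicate 1. GluProRS/AP-1sigma, at the gene of a synthetase for glutamate and proline, had 615 in replicate 3 and 224 in replicate 1, and Rpn6/ave, at a proteasome lid gene, 355 in replicate 3 and 168 in replicate 1. RPA1/Mcm2, at the gene of a subunit of the replicative helicase, had 309 in replicate 3 and 123 in replicate 1. The ball/His2Av site, at the H2A variant gene, had 312 in replicate 3 and 112 in replicate 1. The ro/T48 site had 116 in replicate 3 and 70.9 in replicate 1, and CG43116/E(spl)mdelta-HLH, by far the stronger of the 2 developmental ones, had 1407 in replicate 3 and 896 in replicate 1. Both genes were on a list in only 3 sites, namely 2 at RpL28/eIF1 and 1 at mRpL39/Prosbeta2.

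The replicates shared most of these sites, which the reproducible list selects for. A summit within 100 bp was in the full list of replicate 3 for 881 of the 897 (98.2%) and in that of replicate 1 for 837 (93.3%), and 824 (91.9%, 95% interval 89.9 to 93.5%) had both. Of the rest, 57 were in replicate 3 only, 13 in replicate 1 only and 3 in neither. A summit within 200 bp was present for 49 of the 60 without a replicate 1 partner and for 15 of the 16 without a replicate 3 partner, so most had a summit nearby. Summits within 100 bp in both full lists were found for 93.8% of other promoter sites (95% interval 92.35 to 94.94%) and 95.2% of sites outside promoters. In the full lists the share was thus lowest at divergent promoter sites, with an interval that overlaps that of other promoter sites. With the equally long lists of strongest peaks the order differed. Both libraries then had a summit at 72.7% of divergent sites, 69.4% of other promoter sites and 74.1% of sites outside promoters. Across the 824 sites, signal in replicate 3 and replicate 1 had a Spearman correlation of 0.80, and across 1264 other promoter sites it was 0.70.

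The higher signal of divergent than of other promoter sites rested mainly on replicate 3. In the combined list the median signal was 308 at divergent and 249 at other promoter sites, a ratio of 1.23. In replicate 3 the median was 210 at divergent and 157 at other promoter sites (ratio 1.34), and in replicate 1 it was 105 at divergent and 99.2 at other promoter sites (ratio 1.06). The quartiles overlapped widely in all 3 lists, at 197 to 537 for divergent and 173 to 446 for other promoter sites in the combined list. The log2 ratio of replicate 3 to replicate 1 signal had a median of 1.13 at divergent promoter sites, 0.78 at other promoter sites and 0.55 at sites outside promoters. It was above 0 in 93.1% of the matched divergent sites and 84.9% of the other promoter sites. With 2 libraries of 1 group these differences have no test, and whether the libraries differ in depth or in embryos is not known here.

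**Figure D5:**
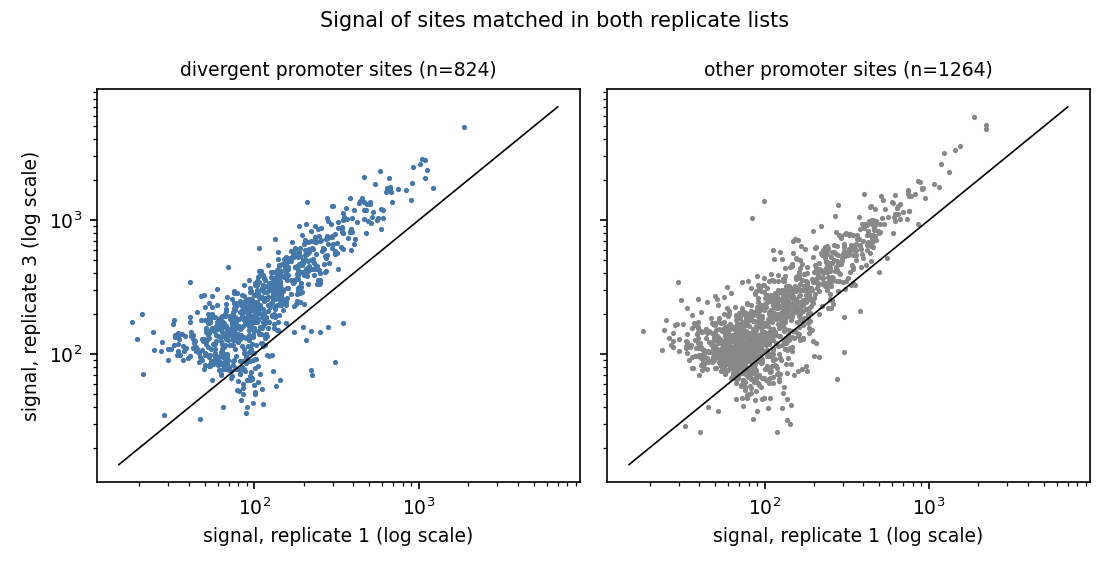
Signal of matched sites in replicate 3 (vertical, log scale) against replicate 1 (horizontal, log scale) for 824 divergent promoter sites (left) and 1264 other promoter sites (right), with the line of equal signal. Divergent promoter sites lie further above the line, at a median log2 ratio of 1.13 against 0.78.

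The 500 bp limit of the rule left few sites close to it. The farther TSS was over 475 bp away in 10 sites, with a median combined signal of 168, and 500 to 525 bp away in 10 sites just outside the rule, with a median of 238. The last inside was app/CG32100 (496 bp, signal 659) and the first outside CG10804/CG10802 (506 bp, signal 287).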

How the data were processed

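The authors called peaks on dm6 for replicate 3, for replicate 1 and for both together, against the same control alignment, and derived the reproducible list by irreproducible discovery rate (IDR), per the notes deposited with the files. The sources used here give no peak caller, threshold or read depth, so intervals cover counting of sites only. The signal per peak is the deposited value. The assignment of sites to classes recovered every planted class when tested on simulated data. All 5354 IDR sites are in the combined list with the same signal.

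Summits were placed against every protein-coding TSS of Ensembl release 115 on arms 2L, 2R, 3L, 3R, 4 and X. Replicate values are those of the strongest summit within 100 bp. Shares carry 95% Wilson intervals (scipy 1.17.1, pandas 2.3.3). No test was made, since sites are not replicates.

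Named pairs are the 15 strongest, the 3 of smallest and the 3 of largest spacing and up to 4 per gene list, and others were chosen after their values were seen; a few of these pairs are not reported here. Symbols that match a list's pattern but encode other proteins (such as Rpi and Prps) were taken off. The members, the 16 lists and the 11 motifs were chosen with earlier results of these data known. The alternatives varied the window, TSS set, threshold, replicates, match distance, GC window and pair definition.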

Additional observations from a re-analysis of the deposited data

How the results depend on the processing

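With a 200 bp promoter window the sites numbered 471, with a median spacing of 238 bp, 82.8% of summits between the TSSs, a signal ratio to other promoter sites of 1.46, a GC difference of -4.88 percentage points, a log2 replicate difference of 0.23 and 94.5% matched in both libraries. With 1000 bp the head-to-head share was 98.3%, the spacing 329 bp, the share between TSSs 84.1% and the GC difference -3.60. With 1 TSS per gene these were 97.4%, 84.6% between the TSSs and -4.26, and the log2 replicate difference was 0.30. In the stronger 2677 sites there were 532, with a spacing of 288 bp, a signal ratio of 1.03, a GC difference of -4.04, 21.0% of close pairs with a site and 97.4% matched. GC within 25 bp differed by -4.91 and within 200 bp by -2.34. A match within 50 bp left 73.0% in both libraries and within 200 bp 98.7%. Close pairs of at most 500 bp had a site in 38.4%, and 31.5% had a summit strictly between the TSSs.

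Without replicate 1 or replicate 3 in turn, the head-to-head share was 98.2 to 98.8%, the spacing 287 to 299 bp, the share between TSSs 83.1 to 85.1%, the GC difference -3.90 to -3.88 and the share of pairs with a site 33.8 to 36.8%. Of the 56 recomputed values, 23 stayed within a set range and 33 moved out of it. The range was the spread of the replicates, the interval of the main value or, for the number of sites, 1.5 times it. The signal ratio, the GC difference and the log2 replicate difference kept their direction throughout. The other values are counts, shares or spacings, which have no direction to reverse. No paired analysis was possible because there is 1 group. Read depth is unknown and limits what can be said of weak sites.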
